A study of Homo sapiens with 6 samples.

Results

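The kinesins are the motor proteins that walk along microtubules or take them apart. They were chosen as every row of the deposited expression table whose gene symbol is KIF with a number and an optional letter, or KIFC with a number, which gave 42 of 19990 genes. Of these, 12 were grouped as mitotic kinesins, 15 as cargo-transport kinesins and the remaining 15 as other kinesins, which include depolymerases and ciliary and signalling kinesins. The grouping was made by function, but with earlier results of these data known.

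The cells were A549, an established line of human lung adenocarcinoma, described in the labels as epithelial-like. The 6 libraries formed 3 groups of 2: a non-targeting control siRNA with the genotype given as WT, and siRNA 1 and siRNA 2 against TIMM13, a small chaperone of mitochondrial protein import, with the genotype given as TIMM13 knockdown. The labels give no time after transfection, no siRNA dose and no statement that replicates were separate cultures, and the treatment field of all 6 libraries reads cell differentiation. The p-values below therefore measure only the spread between these libraries, which may be technical. Each value is a signal per gene of unstated unit, treated here as scaled to depth by the authors, and the number of reads behind it is unknown.

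The signal of TIMM13 itself was 2.09 and 2.56 in control, 2.09 and 1.83 with siRNA 1, and 1.82 and 2.31 with siRNA 2, where the first value of each pair is replicate 1. The siRNA libraries lay within or just below the range of the controls, and neither difference passed the test (limma adjusted p = 0.653 and 0.666). The annotated TIMM13 gene overlaps the coding gene LMNB2 on its own strand and TMPRSS9 on the other. How reads there were assigned is not stated, so this signal may not measure TIMM13 well and does not settle whether the knockdown worked. Directions below are therefore those of libraries labelled with an siRNA. The second siRNA 2 library differed most from the rest: across all tested genes it correlated at 0.805 with the first siRNA 2 library, against 0.888 and 0.895 for the replicate pairs of the other groups. The 8 epithelial and A549 markers were all present, with a summed signal of 4340 to 4370 in control, 4510 to 4660 with siRNA 1 and 4650 to 8970 with siRNA 2. ALDH1A1 was the largest part of that sum in every library, at 5310 in the second siRNA 2 library, and the members did not move together. AKR1B10 had a mean of 1160 in control and 312 with siRNA 2, and CDH1 had 14.8 and 32.0, neither called (limma adjusted p = 0.0599 and 0.0558). Of 10 markers of leukocytes, fibroblasts and endothelium, 9 stayed under 1 in every library and CD3E was listed at 0 in all 6. Their sum was 0.933 to 0.982 in control, 2.36 to 2.62 with siRNA 1 and 2.79 to 5.03 with siRNA 2, and the collagen gene COL1A1 made up most of it. The part of these differences in the results below was not tested.

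All kinesins share a motor domain that binds ATP and the microtubule. In mitosis, some build the bipolar spindle, some move or depolymerise the microtubule ends that hold chromosomes, and some carry the proteins of the central spindle to the site of cytokinesis. Between divisions, kinesins of other families carry vesicles, organelles and mRNAs, mostly away from the centre of the cell. Genes of the mitotic kinesins are known to be transcribed mainly in G2 and M phase, under the DREAM and MMB-FOXM1 complexes, so that their mRNA level follows the share of dividing cells. In bulk RNA, fewer cells with a transcript and less transcript per cell cannot be told apart.

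A gene was tested where its signal was at least 1 in at least 2 libraries, which held for all 12 mitotic kinesins, 11 of 15 cargo-transport kinesins and 8 of the other 15. Differences are log2 differences on the log2(signal + 1) scale, which understates changes of genes with low signal. A gene was called at a limma adjusted p under 0.05 over all 11486 genes tested. With siRNA 1, 3 of the 31 tested kinesins were called, 1 higher and 2 lower, where 1.63% of all genes were called. With siRNA 2, 2 were called, 1 higher and 1 lower, where 3.0% of all genes were called. The called genes were KIF18B and KIF1C with each siRNA and KIF5B with siRNA 1. For the mean of both siRNAs against control, 2 were called, where 1.19% of all genes were called. They were KIF1C as higher (0.723% of all genes) and KIF18B as lower (0.470%). Without adjustment, limma gave a p under 0.05 for 10 kinesins with siRNA 1 (20.5% of all genes), 12 with siRNA 2 (25.7%) and 8 for the mean of both (23.1%). With any 1 control or siRNA 1 library left out, limma called 0 of all 11486 genes in every comparison, so each call given here, partners included, was then lost (4 to 9 kinesins had an unadjusted p under 0.05).

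Of the mitotic kinesins, KIF18B fell with each siRNA, and the other 11 were not called. KIF18B moves to the plus ends of astral microtubules and shortens them in mitosis. Its signal was 16.4 and 15.3 in control, 5.05 and 4.64 with siRNA 1 and 3.57 and 2.66 with siRNA 2. All 4 siRNA libraries lay far below both controls, and the 2 siRNA groups did not overlap each other. The log2 difference was -1.53 (SE 0.192, limma adjusted p = 0.0472) with siRNA 1 and -2.04 (SE 0.192, adjusted p = 0.0326) with siRNA 2. The direct comparison of the siRNAs did not pass the test (log2 difference 0.51 for siRNA 1 minus siRNA 2, adjusted p = 0.201), except without the first siRNA 2 library (0.67, adjusted p = 0.0278). The calls were lost when any 1 control or siRNA 1 library was left out, with adjusted p of 0.238 to 0.265 for siRNA 1 and 0.156 to 0.174 for siRNA 2, at log2 differences between -1.48 and -2.09. The siRNA 1 call was also lost with pseudocounts of 0.1 and 0.5 (limma adjusted p = 0.0577 and 0.0521) and without the filter (0.0569). So it was with upper-quartile scaling (0.103), equal totals (0.141) and the replicate block (0.148). The siRNA 2 call was lost with equal totals (0.064), library weights (0.0839), only control and siRNA 2 fitted (0.156) and the replicate block (0.13). KIF18B spans 44924709 to 44947711 on the minus strand of chromosome 17 (GRCh38) and has 4 annotated transcripts, so that a change of transcript and one of level are not separated in its value.

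In 5 further mitotic kinesins, all 4 siRNA libraries lay below both control libraries without passing the adjusted test. KIF14, which recruits citron kinase to the midbody, stood at 8.18 and 8.07 in control, 3.76 and 3.93 with siRNA 1 and 3.89 and 3.70 with siRNA 2. Its replicates lay closer together than those of KIF18B in every group, and its log2 differences were -0.91 and -0.93 (SE 0.155 each, limma adjusted p = 0.0743 and 0.0570). KIF18A, which dampens the oscillation of chromosomes at the metaphase plate, stood at 9.11 and 9.37 in control, 5.09 and 5.39 with siRNA 1 and 3.83 and 5.53 with siRNA 2. The 2 siRNA groups of KIF18A overlapped, and its log2 differences were -0.72 and -0.87 (SE 0.212 each, adjusted p = 0.165 and 0.10). KIF20A, also called MKLP2, carries the chromosomal passenger complex to the central spindle. It stood at 8.52 and 8.85 in control, 4.02 and 4.41 with siRNA 1 and 3.92 and 5.92 with siRNA 2, so that the siRNA 2 libraries were less alike than those of siRNA 1. Its log2 differences were -0.89 and -0.73 (SE 0.227 each, adjusted p = 0.129 and 0.144).

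KIFC1, or HSET, a minus-end motor that focuses spindle poles and clusters extra centrosomes, showed the larger difference with siRNA 2. It stood at 8.23 and 7.70 in control, 5.96 and 5.37 with siRNA 1 and 3.53 in each siRNA 2 library. The 3 groups did not overlap, and the log2 differences were -0.43 and -0.98 (SE 0.162 each, limma adjusted p = 0.243 and 0.0563). For siRNA 1 minus siRNA 2 the KIFC1 difference was 0.56 and did not pass (adjusted p = 0.136). KIF11, or Eg5, slides antiparallel microtubules apart and sets up the bipolar spindle. It stood at 19.0 and 20.2 in control, 2.75 and 11.3 with siRNA 1 and 7.99 and 9.48 with siRNA 2. Its siRNA 1 replicates were 4.11-fold apart although the gene has 1 annotated transcript, and its log2 differences of -1.60 and -1.09 (SE 0.598 each, adjusted p = 0.242 and 0.318) did not pass the test. Without the first siRNA 1 library the KIF11 difference with siRNA 1 was -0.75.

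KIF14, KIF18A and KIF20A passed the test with each siRNA when either siRNA 2 library was left out, but so did a large share of all genes: 2350 and 2374 of 11486 with siRNA 1, and 4663 and 1763 with siRNA 2, without the first and the second library. The adjusted p was then 0.0122 to 0.0306 for KIF14, 0.0230 to 0.0270 for KIF18A and 0.0228 to 0.0491 for KIF20A. KIFC1 passed in the same way with siRNA 2 (adjusted p = 0.0149 and 0.0337), and between the siRNAs without the first siRNA 2 library (0.56, adjusted p = 0.0445). Nothing particular to the kinesins is read from these passes, or from the other passes without an siRNA 2 library given here.

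The remaining 6 mitotic kinesins differed mostly between the siRNA 2 replicates. KIF2C, or MCAK, which depolymerises microtubules at faulty kinetochore attachments, stood at 3.94 and 3.32 in control, 2.07 and 2.39 with siRNA 1 and 2.21 and 4.69 with siRNA 2. KIF4A, a chromokinesin that limits the overlap of the central spindle, stood at 3.98 and 3.91, 2.86 and 2.58, and 2.70 and 5.03 in the same order. In both, the siRNA 1 libraries and the first siRNA 2 library lay below control and the second siRNA 2 library lay above it. KIF15, which can stand in for KIF11 in keeping spindle poles apart, had the same order at a low signal, with 0.856 and 1.10, 0.472 and 0.568, and 0.677 and 1.52. KIF20B, a kinesin of late cytokinesis, stood between 2.92 and 4.66 in all libraries, and its groups overlapped. KIF22, a chromokinesin that pushes chromosome arms to the spindle equator, stood at 4.63 and 6.88 in control, 3.75 and 4.47 with siRNA 1 and 6.40 and 16.3 with siRNA 2. KIF23, or MKLP1, a subunit of centralspindlin, was 3.0-fold apart between the control libraries, at 6.57 and 19.7. Its siRNA libraries, at 8.67 and 9.51 and at 9.42 and 23.6, could not be told from control at this spread.

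**Figure D1:**
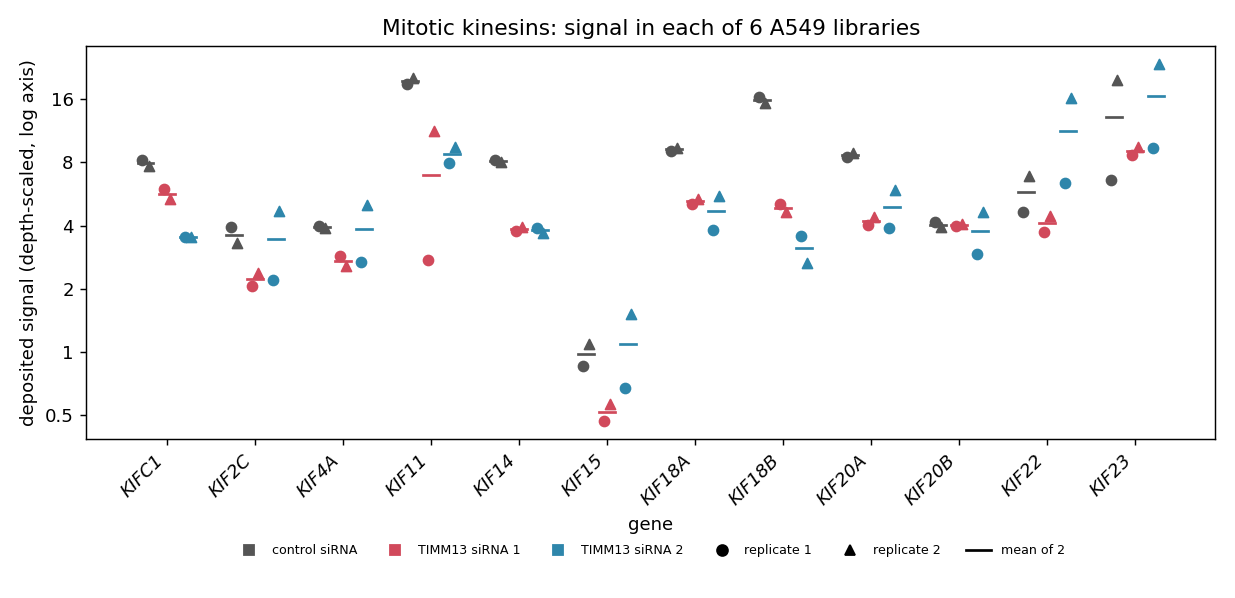
Deposited signal (log axis) of the 12 mitotic kinesins in each library, with circles for replicate 1, triangles for replicate 2 and bars for the mean of 2. KIF18B, KIF14, KIF18A, KIF20A, KIFC1 and KIF11 have all 4 siRNA points below both control points, and the replicate 2 point of siRNA 2 lies above control for KIF2C, KIF4A, KIF15, KIF20B, KIF22 and KIF23.

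Counted by position, 10 of 12 mitotic kinesins had both siRNA 1 libraries below both control libraries, against 31.1% of all tested genes, and 0 had both above, against 36.8%. With siRNA 2, 6 had both libraries below, against 25.9%, and 0 had both above, against 33.7%. All 4 siRNA libraries were below both controls for 6, against 14.7% of all genes, and without the second siRNA 2 library, a count added after seeing the data, this held for 9, against 19.3%. At an unadjusted p under 0.05, limma had 6 lower with siRNA 1 (9.83% of all genes) and 5 lower with siRNA 2 (12.9%), and 0 higher with either (10.7% and 12.8%). The fitted difference was below 0 for 12 of 12 with siRNA 1 (46.2% of all genes), 9 of 12 with siRNA 2 (42.2%) and 10 of 12 for the mean of both (43.1%). The median log2 difference of the 12 was -0.47 with siRNA 1 and -0.42 with siRNA 2, beside 0.05 and 0.14 over all genes tested. By library, the median against the control mean was -0.54 and -0.48 with siRNA 1, and -0.71 and -0.16 with siRNA 2. The median of all genes in these libraries was 0.06, 0.06, 0.07 and 0.17. The comparisons share the same 2 control libraries.

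The mitotic kinesins also share letters near their transcription start that the grouping did not use. The searched motifs were TTTGAA, the core of the CHR element bound by the DREAM and MMB complexes, and CCAAT, bound by NF-Y, each on both strands. They were looked for from 250 bases before to 50 after RefSeq starts on GRCh38.p14. Matches of the 2 motifs can overlap by 1 base at most. For each kinesin only the first listed start was used, so any other start of the gene is not described. RefSeq promoters were matched for 12 mitotic, 11 cargo-transport and 11 other kinesins. TTTGAA was in 9 of the 12 mitotic promoters, in 1 of 11 cargo-transport promoters and in 1 of 11 others, against 15.2% of all 35116 promoters of that length. CCAAT was in 10, 3 and 4 of these promoters, against 34.6% of all, and both motifs were in 8, 1 and 1, against 5.90%. With 1 promoter per gene, over 15263 genes of the expression table, the shares were 12.1% for TTTGAA, 36.6% for CCAAT and 5.08% for both. The 10 TTTGAA matches of the mitotic kinesins began between 55 bases before and 30 bases after the start. The promoters of the 6 mitotic kinesins with all siRNA libraries below control are shown to place these letters. Each line runs 5′ to 3′ on the strand of the gene from 150 bases before to 50 after the start, with both motifs and their reverse complements in capitals.
KIF18B, chr17:44947724-44947923, minus strand: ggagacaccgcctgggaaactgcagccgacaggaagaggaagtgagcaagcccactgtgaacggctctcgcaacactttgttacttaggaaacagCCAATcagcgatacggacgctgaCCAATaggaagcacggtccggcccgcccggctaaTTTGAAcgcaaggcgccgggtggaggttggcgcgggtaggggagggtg
KIF14, chr1:200620702-200620901, minus strand: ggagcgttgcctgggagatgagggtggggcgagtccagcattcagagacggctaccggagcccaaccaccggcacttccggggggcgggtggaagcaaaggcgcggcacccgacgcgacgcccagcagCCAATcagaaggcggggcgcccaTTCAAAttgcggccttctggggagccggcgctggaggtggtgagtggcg
KIF18A, chr11:28108107-28108306, minus strand: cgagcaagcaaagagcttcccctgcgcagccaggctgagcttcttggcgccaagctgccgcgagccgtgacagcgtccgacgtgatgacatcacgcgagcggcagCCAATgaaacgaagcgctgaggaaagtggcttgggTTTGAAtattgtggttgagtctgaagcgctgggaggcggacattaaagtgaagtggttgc
KIF11, chr10:92592980-92593179, plus strand: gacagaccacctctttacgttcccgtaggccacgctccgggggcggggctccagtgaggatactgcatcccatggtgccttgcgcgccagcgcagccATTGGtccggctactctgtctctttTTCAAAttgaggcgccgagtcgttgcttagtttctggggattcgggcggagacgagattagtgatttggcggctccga
KIFC1, chr6:33391673-33391872, plus strand: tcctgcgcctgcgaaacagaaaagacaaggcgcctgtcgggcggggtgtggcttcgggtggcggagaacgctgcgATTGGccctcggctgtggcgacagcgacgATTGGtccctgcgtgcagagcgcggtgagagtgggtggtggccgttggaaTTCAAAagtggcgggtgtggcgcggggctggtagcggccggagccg
KIF20A, chr5:138178962-138179161, plus strand: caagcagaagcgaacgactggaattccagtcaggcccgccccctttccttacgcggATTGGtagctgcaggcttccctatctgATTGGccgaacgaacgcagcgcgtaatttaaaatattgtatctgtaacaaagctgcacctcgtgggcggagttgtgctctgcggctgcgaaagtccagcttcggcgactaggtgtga
KIF18B, KIF14, KIF18A, KIF11 and KIFC1 held both motifs, and KIF20A held 2 CCAAT matches and no TTTGAA in the window. Of the mitotic kinesins not shown, KIF4A, KIF20B and KIF23 also held both motifs, and KIF15 held TTTGAA alone. KIF22 held CCAAT alone, and KIF2C had neither motif. Both motifs were thus not confined to the mitotic promoters shown. Among the cargo-transport kinesins, KIF5B held TTTGAA farther from its start, at 140 bases before it, and KIF1C held neither, as their promoters show in the same frame.
KIF5B, chr10:32056376-32056575, minus strand: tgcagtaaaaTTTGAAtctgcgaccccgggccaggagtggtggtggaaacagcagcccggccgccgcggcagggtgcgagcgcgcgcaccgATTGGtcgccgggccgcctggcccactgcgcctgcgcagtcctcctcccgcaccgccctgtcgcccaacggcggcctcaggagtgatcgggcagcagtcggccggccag
KIF1C, chr17:4997800-4997999, plus strand: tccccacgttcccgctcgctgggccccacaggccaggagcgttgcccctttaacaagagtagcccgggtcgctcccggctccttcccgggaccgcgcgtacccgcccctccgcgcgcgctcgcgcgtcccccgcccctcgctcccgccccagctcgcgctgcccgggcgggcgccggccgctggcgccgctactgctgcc
A match describes letters in the window and is not shown to be a bound site in these cells.

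Among the cargo-transport kinesins, KIF1C rose with each siRNA and KIF5B fell with siRNA 1, and the other 9 tested members were not called. KIF1C, a fast plus-end motor of the kinesin-3 family that carries dense-core vesicles and integrins, had a signal of 3.67 and 3.73 in control, 17.0 and 15.5 with siRNA 1 and 15.4 and 14.2 with siRNA 2. All 4 siRNA libraries were several times higher than the controls, and the siRNA groups lay next to each other. The mean signal was 3.70 ± 0.0465, 16.2 ± 1.02 and 14.8 ± 0.866 (SD, n = 2). The log2 differences were 1.87 (SE 0.161, limma adjusted p = 0.0375) and 1.75 (SE 0.161, adjusted p = 0.0326). For siRNA 1 minus siRNA 2 the difference was 0.12, with a 95% interval of -0.30 to 0.55. The call was lost without any 1 control or siRNA 1 library, with adjusted p of 0.168 to 0.189 for siRNA 1 and 0.156 to 0.178 for siRNA 2. The log2 difference then stayed between 1.74 and 1.93. Both calls were also lost with upper-quartile scaling (limma adjusted p = 0.0761 and 0.0717), equal totals (0.112 and 0.102) and the replicate block (0.148 and 0.13). The siRNA 2 call was lost with library weights (0.0875) and with only control and siRNA 2 fitted (0.156) as well. KIF1C spans 4997948 to 5028401 on the plus strand of chromosome 17 (GRCh38) and has 4 annotated transcripts.

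KIF5B is the ubiquitous heavy chain of kinesin-1, which moves mitochondria, lysosomes and many other cargoes. It stood at 64.5 and 66.9 in control, 20.8 and 23.7 with siRNA 1 and 67.4 and 66.4 with siRNA 2. The siRNA 1 libraries stood apart from the other 4, which lay within a narrow range. The log2 difference with siRNA 1 was -1.52 (SE 0.157, limma adjusted p = 0.0422). With siRNA 2 it was 0.03, with a 95% interval of -0.39 to 0.44, and it was -0.21 and -0.22 under upper-quartile scaling and equal totals. The siRNAs differed from each other by -1.55 (SE 0.157, adjusted p = 0.0323). It was the 1 kinesin called between the siRNAs, where 3.27% of all genes were called, 1.91% higher and 1.37% lower with siRNA 1. Both calls were lost without any 1 control or siRNA 1 library, with adjusted p of 0.195 to 0.233 against control and 0.137 to 0.204 between the siRNAs, while the differences stayed between -1.43 and -1.64. The 2 calls were also lost with upper-quartile scaling, equal totals and the replicate block. The call between the siRNAs was lost with library weights and with only the groups compared as well. KIF5B spans 32009010 to 32056431 on the minus strand of chromosome 10 (GRCh38) and has 2 annotated transcripts. The neuronal kinesin-1 heavy chains KIF5A and KIF5C were under 1 in all 6 libraries and were not tested.

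Within kinesin-3, KIF1B, which carries mitochondria and synaptic vesicle precursors, also lay higher with each siRNA. It stood at 2.86 and 1.93 in control, 5.21 and 4.93 with siRNA 1 and 6.44 and 6.16 with siRNA 2. The groups did not overlap, and the log2 differences of 0.85 and 1.12 (SE 0.200 each, limma adjusted p = 0.115 and 0.0627) did not pass. Without the first siRNA 2 library the test passed with siRNA 2 (adjusted p = 0.0359). KIF13B, which transports membrane receptors and the polarity protein DLG1, stood at 4.31 and 3.48 in control, 6.32 and 4.87 with siRNA 1 and 2.59 and 1.92 with siRNA 2. It thus lay above control in one siRNA group and below it in the other. The difference between the siRNAs was 1.02 (SE 0.218, adjusted p = 0.0832), and 1.17 (adjusted p = 0.0313) without the first siRNA 2 library. KIF13A, a motor of recycling endosomes and melanosome cargo, stood between 6.07 and 8.63 in all libraries with overlapping groups. KIF16B, a motor of early endosomes, stood at 6.42 and 5.75, 6.89 and 5.27, and 9.14 and 8.52 in control, siRNA 1 and siRNA 2, higher in the siRNA 2 group alone without passing the test (adjusted p = 0.221).

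Kinesin-2 builds cilia and moves organelles as a heterotrimer of KIF3A with KIF3B or KIF3C and the adaptor KIFAP3. Its 3 motor subunits did not move alike. KIF3A stood at 9.30 and 7.92 in control, 5.96 and 6.08 with siRNA 1 and 11.3 and 9.80 with siRNA 2. KIF3B stood at 16.1 and 14.6, 23.5 and 18.4, and 16.2 and 9.96, and KIF3C at 13.8 and 12.8, 24.6 and 23.7, and 12.3 and 9.10 in the same order. With siRNA 1, KIF3A thus lay below control and KIF3B and KIF3C above it. For siRNA 1 minus siRNA 2 the KIF3A difference was -0.71 and did not pass (limma adjusted p = 0.108). The largest of these differences, that of KIF3C between the siRNAs, was 1.12 (SE 0.201, limma adjusted p = 0.0620), and that of KIF3C between siRNA 1 and control was 0.82 (SE 0.201, adjusted p = 0.123). Without the first or the second siRNA 2 library, KIF3C passed with siRNA 1 (adjusted p = 0.0205 and 0.0195) and between the siRNAs (0.00857 and 0.0248). With siRNA 2 the KIF3C difference was -0.30 (adjusted p = 0.385), and it was -0.50 (0.0327) without the first siRNA 2 library and -0.11 (0.493) without the second. Without the first, KIF3A passed between the siRNAs (adjusted p = 0.0443). KIF17, a homodimeric kinesin-2 of cilia and dendrites, was under 1 throughout.

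The C-terminal motors of the cargo group gave no call. KIFC2 stood at 8.68 and 9.15 in control, 10.7 and 8.89 with siRNA 1 and 9.24 and 10.9 with siRNA 2, and its 95% interval was -0.37 to 0.61 with siRNA 1 and -0.34 to 0.64 with siRNA 2. KIFC3, a minus-end motor of apical transport and adherens junctions, had 35 annotated transcripts, the most of any kinesin. Its replicates were 2.08-fold apart in control, 2.57-fold with siRNA 1 and 4.46-fold with siRNA 2, so that no difference was detectable. KIF1A, a neuronal motor of synaptic vesicle precursors, was under 1 in all 6 libraries.

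**Figure D2:**
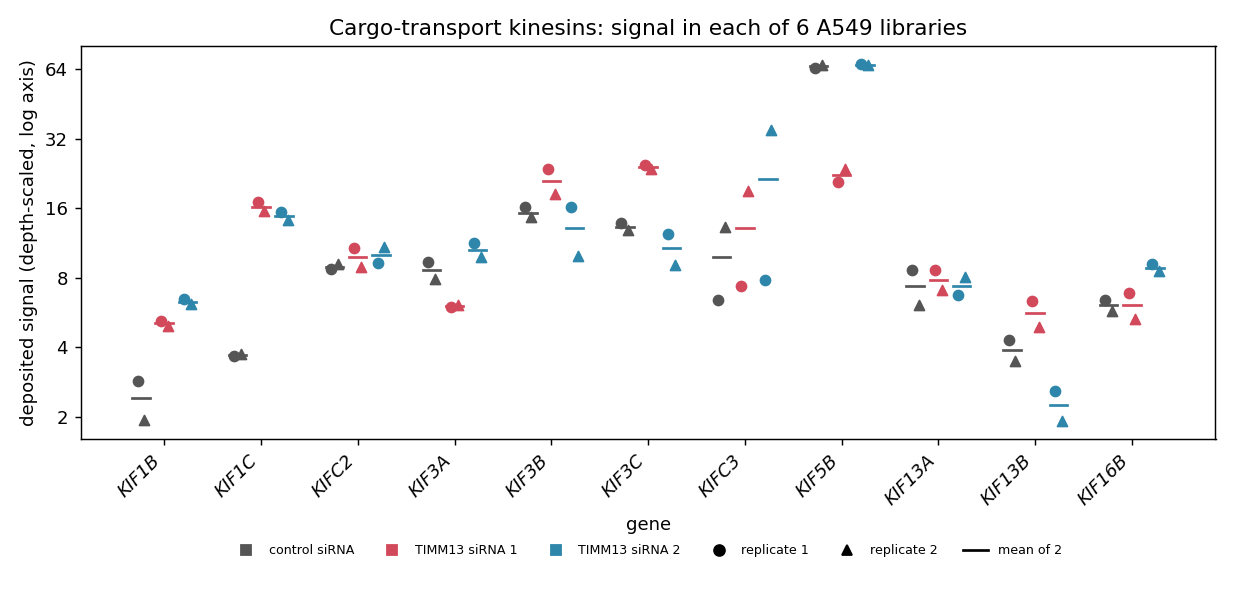
Deposited signal (log axis) of the 11 tested cargo-transport kinesins in each library, with circles for replicate 1, triangles for replicate 2 and bars for the mean of 2. KIF1C is higher in all siRNA libraries, KIF5B is lower in the 2 siRNA 1 libraries, and KIF3C and KIF13B are above control with siRNA 1 and below it with siRNA 2.

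As a group, the 11 tested cargo-transport kinesins went both ways. With siRNA 1, 1 was called higher (0.705% of all genes) and 1 lower (0.923%), and with siRNA 2, 1 was called higher (1.24%) and 0 lower (1.76%). At an unadjusted p under 0.05, limma had 3 higher (10.7% of all genes) and 1 lower (9.83%) with siRNA 1, and 2 higher (12.8%) and 1 lower (12.9%) with siRNA 2. The fitted difference was above 0 for 8 of 11 with siRNA 1 (53.8% of all genes), with siRNA 2 (57.8%) and for the mean of both (56.9%). Their median log2 difference was 0.33 with siRNA 1 and 0.15 with siRNA 2, beside -0.47 and -0.42 for the 12 mitotic kinesins. With siRNA 2 the cargo median was -0.06 and -0.07 under upper-quartile scaling and equal totals. The mitotic median kept its sign under every alternative run, but several of these could not change it. Those were library weights, the replicate block, fitting only the groups compared, dropping the filter and leaving out a library of another group. No cargo-transport kinesin had all 4 siRNA libraries below control, against 14.7% of all genes and 6 of 12 mitotic kinesins. All 4 lay above control for 2, against 18.3% of all genes. Without the second siRNA 2 library, 0 had the rest below (19.3% of all genes) and 3 had them above (23.9%). With 11 members, a count of 0 at such shares is not read as particular to the group. Between the siRNAs, 7 kinesins had an unadjusted p under 0.05 (24.3% of all genes). KIFC1, KIF18B, KIF3C and KIF13B were on the higher side with siRNA 1 (12.7%), and KIF3A, KIF5B and KIF7 on the lower (11.7%). KIF7 had passed the filter only through its siRNA 2 libraries, so its p is not read as a result. The contrast of mitotic and cargo-transport kinesins is a description and was not given a test.

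**Figure D3:**
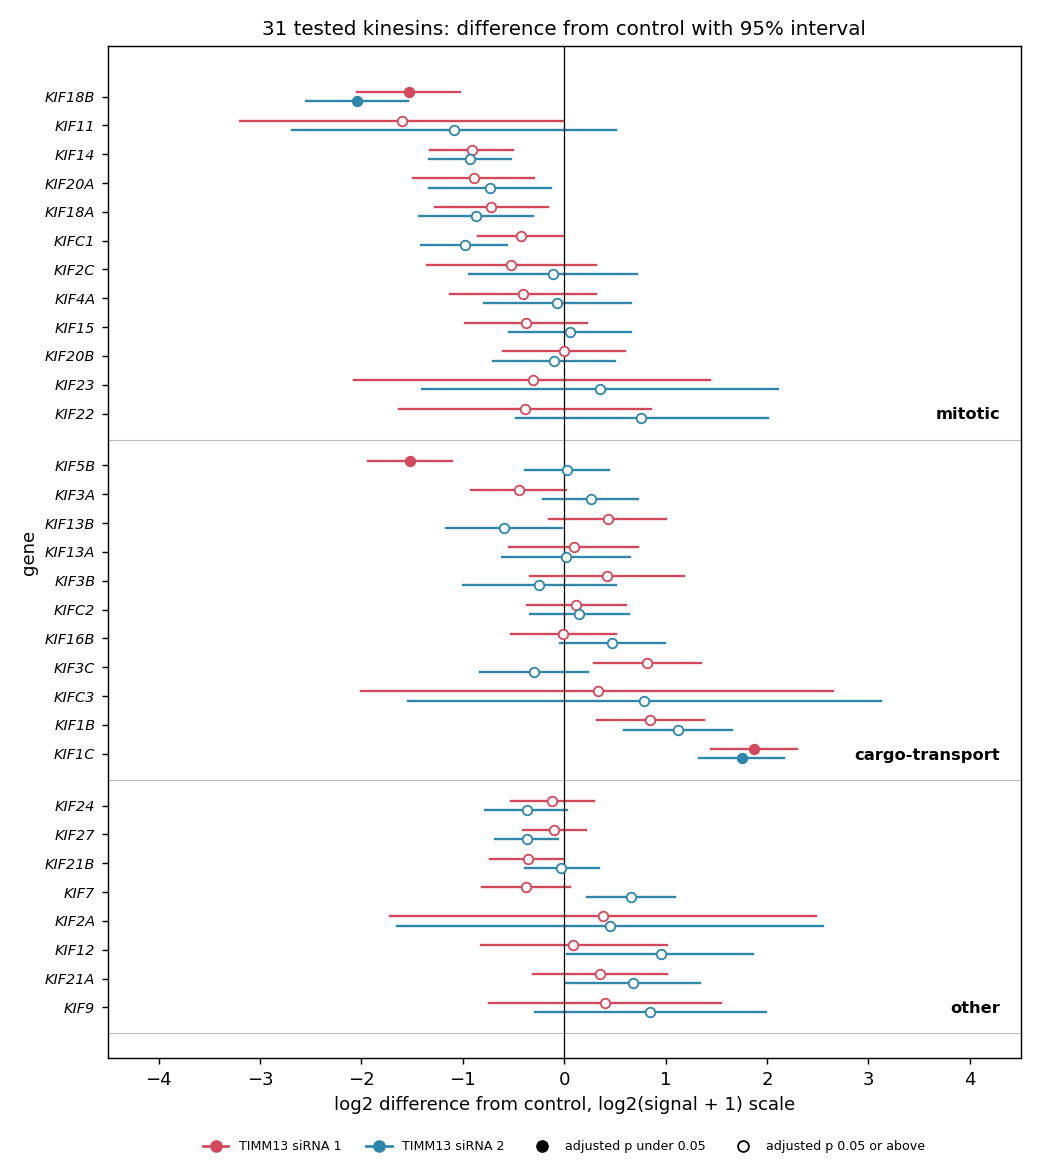
Log2 difference from control of the 31 tested kinesins for siRNA 1 and siRNA 2, with 95% intervals from limma, filled where the adjusted p is under 0.05. KIF18B and KIF1C are filled for each siRNA and KIF5B for siRNA 1, where its point lies at -1.52 against 0.03 for siRNA 2.

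**Figure D4:**
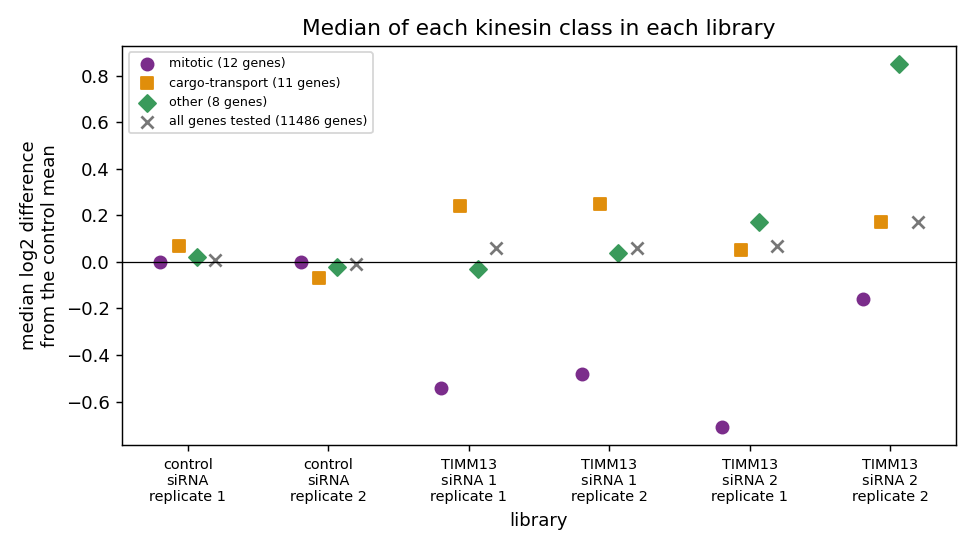
Median over each kinesin class of the log2 difference from the control mean, by library, with all tested genes for comparison. The mitotic median is between -0.71 and -0.48 in 3 siRNA libraries and -0.16 in the second siRNA 2 library. The median of the other kinesins, 0.85 in that library, is not read as a result. Among them, KIF7, KIF9 and KIF12 passed the filter only through siRNA libraries.

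Of the other 15 kinesins, 8 were tested and limma called 0 with either siRNA, where 1.63% and 3.0% of all genes were called. At an unadjusted p under 0.05 there were 0 and 4, against 20.5% and 25.7% of all genes, and KIF7 and KIF12 among the 4 had passed the filter only through the siRNA 2 libraries. KIF21A, a brake on microtubule growth at the cell cortex, lay above control in all 4 siRNA libraries, at 7.76 and 7.44 in control, 10.2 and 9.78 with siRNA 1 and 10.2 and 16 with siRNA 2. Its differences were 0.35 and 0.68 (SE 0.252 each, limma adjusted p = 0.515 and 0.187), and with siRNA 2 it was 0.99 (adjusted p = 0.0105) without the first siRNA 2 library and 0.38 (adjusted p = 0.0927) without the second. KIF7, the kinesin of Hedgehog signalling at the tip of the cilium, stood at 0.916 and 1.20 in control, 0.755 and 0.422 with siRNA 1 and 2.12 and 2.35 with siRNA 2. Its siRNA 1 libraries lay below and its siRNA 2 libraries above control. Because of how it passed the filter, these values are a description and carry no test.

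KIF27, a relative of KIF7, and KIF24, which restrains the assembly of cilia, had low signals that were lower in all 4 siRNA libraries. KIF27 went from 1.70 and 1.59 to 1.48 and 1.45 with siRNA 1 and 1.10 and 0.987 with siRNA 2 (limma adjusted p = 0.699 and 0.149). KIF24 went from 1.37 and 1.22 to 1.20 and 1.03, and to 0.961 and 0.594 (adjusted p = 0.739 and 0.217). KIF2A, a depolymerase of spindle poles and neurons, was 3.99-fold apart between the control libraries, at 4.0 and 16, and gave no detectable difference. KIF21B stood between 0.543 and 1.21 in all libraries. KIF9 and KIF12 passed the filter only through their siRNA libraries: their highest control signal was 0.635 and 0.569, and both peaked in the second siRNA 2 library, at 3.16 and 2.86. Their differences are therefore given no test.

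The 11 untested kinesins had a signal of at most 0.722 in the 4 of the cargo group and at most 0.904 in the 7 others. KIF2B and KIF19 were listed at 0 in all 6 libraries. KIF26A, which has lost ATPase activity, stood at 0.862 and 0.904 in control, 0.525 and 0.351 with siRNA 1 and 0.240 and 0.261 with siRNA 2. Its siRNA libraries were all lower, under the filter. KIF4B is an intronless near copy of KIF4A, so its signal of 0.0689 to 0.335, and that of KIF4A in part, is uncertain. KIF6, KIF25 and KIF26B were listed at 0 in some libraries.

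Of 25 tested partners of the spindle and midzone, 1 was called lower with siRNA 1 and 0 with siRNA 2, where 0.923% and 1.76% of all genes were called lower. At an unadjusted p under 0.05, 7 were lower with each (9.83% and 12.9% of all genes), and 2 higher with siRNA 1 (10.7%). The median was -0.41 and -0.06. BIRC5, the survivin subunit of the chromosomal passenger complex, was called higher with siRNA 1 than with siRNA 2, where 1.91% of all genes were. ANLN, an anchor of the contractile ring, fell with siRNA 1, from 26.3 and 26.7 to 5.79 and 6.65 (limma adjusted p = 0.0395), and stood at 9.81 and 12.2 with siRNA 2 (adjusted p = 0.0520). CKAP2 stood at 34.9 and 33.5, 14.8 and 18.5, and 15.6 and 10.8 in control, siRNA 1 and siRNA 2 (adjusted p = 0.119 and 0.0637). ASPM, which organises spindle poles, and CEP55, which recruits the abscission machinery, were also lower in all 4 siRNA libraries without passing.

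Among 17 tested regulators of mitotic transcription, 1 was called higher and 1 lower with siRNA 1 and 0 with siRNA 2, where 1.63% and 3.0% of all genes were called. At an unadjusted p under 0.05 there were 6 with each, against 20.5% and 25.7% of all genes. CDKN1A, the p21 inhibitor that keeps DREAM assembled, rose with siRNA 1 from 17.6 and 21.2 to 206 and 167 (limma adjusted p = 0.0375) and stood at 83.3 and 55.9 with siRNA 2 (adjusted p = 0.0515). LIN52, the MuvB subunit whose phosphorylation assembles DREAM, fell with siRNA 1 from 5.03 and 5.64 to 1.14 and 0.841 (adjusted p = 0.0427) and stood at 6.13 and 4.73 with siRNA 2. Like KIF5B it was lower with siRNA 1 than with siRNA 2 (log2 difference -1.69, adjusted p = 0.0366). MYBL2, a subunit of MMB, was called in the opposite direction. Of all genes, 1.37% were called lower and 1.91% higher with siRNA 1 than with siRNA 2. RBBP4, another MuvB subunit, and TFDP1, the partner of E2F, lay above control in all 4 siRNA libraries. RBBP4 stood at 3.87 and 7.53 in control and at 15.5 to 20.7 in the siRNA libraries (adjusted p = 0.106 and 0.0682).

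Of 19 tested partners of cargo kinesins, limma called 0 with either siRNA, where 1.63% and 3.0% of all genes were called. At an unadjusted p under 0.05 there were 4 and 6, against 20.5% and 25.7% of all genes. The median log2 difference was -0.02 and 0.30. MAP7, the microtubule protein that recruits kinesin-1, stood at 11.9 and 12.6 in control, 19.1 and 21.6 with siRNA 1 and 28.1 and 38.6 with siRNA 2 (limma adjusted p = 0.181 and 0.0541). KIDINS220, which binds kinesin-1 through its light chain, and the mitochondrial adaptor TRAK2 lay below control in all 4 siRNA libraries, and MAP7D1 above it, without passing. Of 24 tested genes of dynein and dynactin, the minus-end motor, 1 was called with siRNA 1 (1.63% of all genes) and 0 with siRNA 2 (3.0%). At an unadjusted p under 0.05 there were 3 with each, against 20.5% and 25.7% of all genes. The median was -0.03 and 0.45, with 22 of 24 above 0 with siRNA 2, against 57.8% of all genes. BICD2, an adaptor that links dynein and kinesin-1 to cargo, rose with siRNA 1 from 2.76 and 2.67 to 13.6 and 12.9 (adjusted p = 0.0395) and stood at 5.45 and 4.25 with siRNA 2. BICD2 differed between the siRNAs (log2 difference 1.29, adjusted p = 0.0455), in the direction opposite to KIF5B, where 1.91% of all genes were called. HOOK3 lay below control in all 4 siRNA libraries, at 6.29 and 6.19 in control and 2.82 to 3.94 in the others, without passing. DYNLRB1, a dynein light chain, had 0.150 and 39.5 in the control libraries and 33.7 to 90.4 in the siRNA libraries, so that its difference rested on 1 control library.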

How the data were processed

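Poly(A)-selected, dUTP strand-specific libraries were sequenced, per the labels' protocols. Trim Galore, STAR, featureCounts and build hg38 are named, per the submitters' processing notes, without versions or roles. The deposited signal is a non-negative decimal number per gene symbol, scaled by the authors in a way not given in the sources used here. Column totals ranged from 205986 to 219820, except in the second siRNA 2 library, at 299936. Whether it is per transcript length is not stated, so levels are not compared between genes. Read counts were not recovered: of 213 low genes with 1 transcript, 17.8% lay within 0.02 log2 of whole-read steps between the control libraries. The depth is thus unknown, and values carry no counting interval.

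Genes with a signal of at least 1 in at least 2 libraries (11486 of 19990) were used as log2(signal + 1) without further scaling. All 6 libraries were fitted with 1 term per group (3 residual degrees of freedom) in limma 3.58.1, R 4.3.3 (eBayes, trend and robust), with Benjamini-Hochberg adjustment over all genes. The fit was run on simulated data in which all 6 libraries of a gene had the same spread. In the data, the median replicate SD over all tested genes was 0.32 log2 with siRNA 2, 0.0864 in control and 0.102 with siRNA 1. The simulation did not cover this unequal spread, and no conclusion is drawn from it. The kinesins, the lists and the rule for named genes (every mitotic kinesin, every tested cargo kinesin, other kinesins by signal, and up to 4 genes of each list by smallest p) were chosen with earlier results of these data known, so no list has a p of its own. Alternatives changed the pseudocount, filter, scaling, library weights, groups fitted, replicate term or 1 library. Gene positions come from GENCODE 29 on GRCh38, and promoters from RefSeq, GRCh38.p14, where 34 of 42 kinesins matched.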

Additional observations from a re-analysis of the deposited data

Results flagged for a closer look

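KIF5B differed between the 2 siRNAs under a test of the difference itself, with a log2 difference of -1.55 for siRNA 1 minus siRNA 2 (limma adjusted p = 0.0323). It was lower than control in both siRNA 1 libraries and in neither siRNA 2 library by more than the spread between replicates. No group held enough libraries to test for a single library far from the others.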

How the results depend on the processing

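The counts of called kinesins were 3, 2, 2 and 1 for siRNA 1, siRNA 2, the mean of both siRNAs and siRNA 1 against siRNA 2, and they rested on adjusted p-values close to 0.05. In the same order they were 0, 1, 0 and 0 with upper-quartile scaling, 0, 0, 0 and 0 with equal totals, and 11, 0, 6 and 0 with library weights. Over all 11486 genes the same fits called 31, 115, 36 and 80, then 26, 19, 36 and 38, then 3001, 11, 791 and 5, so that the kinesin counts moved with the whole table. A fit of only the groups compared gave 7 for siRNA 1 (2386 of all genes), 0 for siRNA 2 (0) and 0 for siRNA 1 against siRNA 2 (0), and without a filter on low values the mean of both gave 1. Pseudocounts of 0.1 and 0.5 gave 2 for siRNA 1, without KIF18B. With 1 library left out, the counts ranged over 0 to 7, 0 to 12, 0 to 11 and 0 to 15, where all genes called ranged over 0 to 2374, 0 to 4663, 0 to 4066 and 0 to 4581. The counts of 0 had 4 to 9 kinesins at an unadjusted limma p under 0.05. The lone library of a reduced group is assumed to vary like the other groups.

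With the replicate block the counts were 0, 0, 0 and 0 (9, 10, 9 and 9 at an unadjusted p under 0.05). Same-numbered libraries did not deviate together (correlations 0.00136, -0.00332 and 0.0459), so the numbers are not taken as a pairing.

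The mitotic median was -0.47 with siRNA 1, and it was -0.74 and -0.56 with pseudocounts of 0.1 and 0.5, -0.80 with the filter at 5, and -0.51 and -0.53 with upper-quartile scaling and equal totals. With the filter at 5 it was -0.90 for siRNA 2 and -0.80 for the mean of both, where it was -0.42 and -0.51 as reported. With 1 library left out it ranged from -0.68 to -0.47, from -0.71 to -0.16 and from -0.68 to -0.40 for siRNA 1, siRNA 2 and their mean. The cargo-transport median for siRNA 1, 0.33 as reported, was 0.10 without a filter and 0.22 with the filter at 5. For siRNA 2, 0.15 as reported, it was 0.03 without a filter, -0.06 with upper-quartile scaling and -0.07 with equal totals. For the mean of both, 0.14 as reported, it was 0.06, 0.01 and 0.00 in the same order. With 1 library left out it ranged from 0.24 to 0.33, from 0.05 to 0.24 and from 0.07 to 0.20. The median of all genes with siRNA 2 moved from 0.14 to -0.06 with either scaling. The cause of these changes was not tested, except that the stricter filter leaves fewer members.

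Single kinesins were recomputed only where the main fit gave an unadjusted limma p under 0.05 with either siRNA or between the siRNAs. Library weights, the replicate block, fitting only the groups compared and leaving out a library of another group do not change the fitted difference. Directions under those settings were fixed in advance, so the count is a description and not a test. Of 545 recomputed values for 37 differences of single kinesins, 542 kept their direction. The others were KIF5B with siRNA 2, at -0.21 and -0.22 with upper-quartile scaling and equal totals, and KIF12 with siRNA 1, at -0.02 without the first control library (range -0.02 to 0.21 with 1 library left out).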
